A study of Mus musculus with 30 samples.

Results

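The mitochondrial ribosomal protein genes are the nuclear genes for the protein parts of the ribosome inside mitochondria. They were taken as every protein-coding gene in the count table whose GENCODE M21 symbol is Mrpl or Mrps followed by a number, which gave 78 of 55335 genes. Of these, 49 carry an Mrpl and 29 an Mrps symbol. By the place of the protein, 51 belong to the large subunit, among them Mrps18a and Mrps30, and 26 to the small subunit. The remaining gene, Mrps36, is named as a ribosomal protein, but its product is known as a component of the alpha-ketoglutarate dehydrogenase complex.

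Mitochondria translate the few mRNAs of their own genome, which code for subunits of the respiratory chain complexes and of ATP synthase. Their ribosome descends from a bacterial one. Its rRNAs come from mitochondrial DNA, while all of its proteins are encoded in the nucleus, made on cytosolic ribosomes and imported. Some of these proteins have bacterial counterparts, and others were gained during the evolution of mitochondria. Neurons depend on respiration to hold and restore their ion gradients.

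Ribosome-bound RNA was measured in the nucleus accumbens of female mice carrying RiboTag (RT), an HA-tagged ribosomal protein that is switched on by Cre, so that polyribosomes of the Cre-expressing cells can be pulled down with anti-HA antibody. D1-Cre-RT mice, whose libraries are called D1 here, tag the D1-receptor class of medium spiny neurons (MSN). A2A-Cre-RT mice tag the A2A-MSN class. These neurons also carry the D2 receptor, hence the short name D2 for this class. Control mice were compared with mice put through chronic witness defeat stress (CWDS), which were divided into Resilient and Susceptible by social interaction scores. All groups carried a Cre and RiboTag, Control included. Each of the 6 groups has 5 libraries, each from a pool of 4 mice with tissue taken 24 h after social interaction was scored, and no age or background strain is given in the sources used. Because a pool of mice was the unit, p-values measure the spread between pools. Levels in such samples cannot tell fewer tagged cells from less RNA per cell, and RNA from untagged cells can remain in the pull-down.

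Gene counts ranged from 28996168 to 65882152 per library, of which 27112 to 222228 fell on the 78 genes. D2 Susceptible replicates 1 and 2 stood apart and detected 15822 and 16525 genes, against 19440 to 22375 in the other 28. In D1 Susceptible replicate 1 a single gene, Gm42418, which overlaps rRNA sequence, took 54.9% of gene counts. D2 Resilient replicate 5 had a summed level of 7 D1 markers of 1858 CPM (read counts scaled to a common library size by the trimmed mean of M-values, TMM), against 371 to 487 in the other 4 libraries of its group. D1 marker sums were 1736 to 2609 CPM in D1 libraries and 281 to 1236 in D2 libraries other than D2 Resilient replicate 5, which lay above the lowest 3 D1 libraries. D2 marker sums (5 genes tested) were 1120 to 2771 CPM in D1 and 4867 to 12799 in D2 libraries, with no overlap, and D2 markers were present in every D1 library. Endothelial markers summed to 13.3 to 36.7 CPM in D1 and 56.6 to 320 in D2 libraries. Mural markers summed to 11.8 to 27.6 CPM in D1 and 54.3 to 133 in D2 libraries, interneuron markers to 296 to 483 in D1 and 68.2 to 284 in D2, and markers of excitatory neurons to 465 to 889 in D1 and 140.2 to 510.4 in D2. Astrocyte markers summed to group means of 44.3 to 73.1 CPM in D1 and 160.0 to 168 in D2, and oligodendrocyte markers to group means of 474 to 653 in D1 and 814 to 1228 in D2. Chrm4, P2ry12, Myh11, Kcnj8, Acta2 and Slc5a7 were at 0 in 1 or more libraries. These markers of other cells move with class beside every D1 to D2 difference given here, and their part in those differences was not tested.

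The 78 genes lie on 17 chromosomes, with 11 on chromosome 11, 8 on chromosome 17 and 7 on chromosome 6. For 18 of them (23.1%) another protein-coding gene starts within 1000 bp on the opposite strand and runs away from it, against 6.79% of 21951 protein-coding genes. Mrps12, which encodes the decoding-centre protein of the small subunit, starts 172 bp from Sars2, the mitochondrial seryl-tRNA synthetase. Mrps18c starts 29 bp from the DNA helicase gene Helq, and Mrpl49 starts 59 bp from Fau. Mrps11 of the small and Mrpl46 of the large subunit start head to head and overlap by 173 bp of exon on opposite strands. Exons of 33 members overlap those of another gene, 28 of them an antisense gene, and 10 share over 20% of their exon bases. Counts of these genes are uncertain, since no source used here gives the strand setting of the counting.

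Promoters were searched for the letters of 3 factors known to act on nuclear genes for mitochondrial proteins. These are nuclear respiratory factor 1 (NRF1, read as GCGC, any base, then TGCGC), the ETS family factor GABP (CCGGAAGT) and YY1 (AAGATGGCG). Both strands were read over 300 bases, from 250 before to 50 after the RefSeq start (GRCm38.p6), for the 69 members that the promoter table matched by symbol. The NRF1 letters were in 13 promoters (18.8%), against 9.91% of 12647 promoters of tested genes and 5.19% of all 27025 promoters. GABP letters were in 12 (17.4%), against 7.73% of tested and 4.31% of all promoters. YY1 letters were in 8 (11.6%), against 2.94% and 1.64%. At least 1 of the 3 was in 31 members (44.9%), against 19.0% and 10.3%. Median GC content was 58.3% in members and 60.3% in tested genes. A match is a description of the sequence, not a bound site.

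Stretches around the matches are shown for 6 members, 5 because their levels come up below and Mrps11 because it starts close to Mrpl46. Capitals mark the matched letters. Mrpl12 holds an NRF1 match, Mrpl18, Mrpl52 and Mrps18c a GABP match, Mrps27 a GABP and then a YY1 match, and Mrps11 a YY1 match. The stretches are chr11:120484496-120484625 on the plus strand, chr17:12916264-12916341 on the minus strand, chr14:54426850-54426938 on the plus strand, chr5:100798542-100798669 on the plus strand, chr13:99344677-99344815 on the plus strand and chr7:78782963-78783091 on the plus strand.
Mrpl12: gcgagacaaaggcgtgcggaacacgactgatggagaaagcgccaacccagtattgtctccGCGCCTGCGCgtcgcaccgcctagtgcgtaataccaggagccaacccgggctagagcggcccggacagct
Mrpl18: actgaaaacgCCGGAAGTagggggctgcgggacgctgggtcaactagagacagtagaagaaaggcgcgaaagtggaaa
Mrpl52: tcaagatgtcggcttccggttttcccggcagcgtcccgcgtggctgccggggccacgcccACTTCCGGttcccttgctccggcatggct
Mrps18c: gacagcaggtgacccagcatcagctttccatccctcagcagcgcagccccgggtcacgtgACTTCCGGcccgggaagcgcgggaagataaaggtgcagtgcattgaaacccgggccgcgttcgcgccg
Mrps27: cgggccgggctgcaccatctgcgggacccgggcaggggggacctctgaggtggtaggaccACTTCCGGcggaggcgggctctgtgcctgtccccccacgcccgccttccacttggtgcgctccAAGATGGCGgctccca
Mrps11: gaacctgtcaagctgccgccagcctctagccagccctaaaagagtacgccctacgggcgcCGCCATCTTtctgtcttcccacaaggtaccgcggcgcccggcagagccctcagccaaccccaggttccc

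In Mrpl12 the capitals begin 81 bases before the start, in Mrpl18 240 bases before it and in Mrps18c 157 bases before it. In Mrps27 they span both sides of the start, from 49 bases before to 23 after. The RefSeq starts of Mrps11 and Mrpl46 are 42 bp apart on opposite strands. The YY1 letters of Mrps11 lie outside the promoter window of Mrpl46, which held none of the 3 motifs.

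Of the 78 genes, 76 passed the filter on low counts and were tested. Mrps10 (chr17:47368887-47381417) and Mrpl53 (chr6:83109040-83109939) had a count of 0 in all 30 libraries, where a count of 0 allows up to 0.0430 to 0.304 CPM depending on depth. In the M21 annotation, 88.0% of the exon bases of Mrpl53 are shared with Gm42688 on the same strand, while Mrps10 shares none. Gene coordinates here and below are those of the M21 annotation on GRCm38. Whether the counting caused these zeros was not tested, and they are not read as a lack of expression.

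Levels between genes were compared as CPM per kb of exon, where exon length comes from M21 and joins all isoforms of a gene. The median member stood at 13.9 CPM per kb, against 2.16 for all 19368 genes tested. Mrpl41 was highest at 68.2 CPM per kb, followed by Mrps33 at 60.5 and Mrpl27 at 59.1. Mrpl27 encodes a protein near the peptidyl transferase centre, and Mrpl41 and Mrps33 encode proteins without a bacterial counterpart. Lowest were Mrpl33 at 0.752 CPM per kb, Mrps23 at 0.867 and Mrps35 at 3.04. The long joined exon sequences of Mrpl33, 7326 bp, and Mrps35, 8631 bp, lower their values per kb. Before scaling by length, Mrpl33 was still low at a mean of 5.51 CPM and Mrps35 was at 26.3 CPM. The median member was at 38.5 CPM. Genes of the large subunit with a bacterial counterpart had a median of 18.5 CPM per kb (29 genes) and those specific to mitochondria 15.6 (21 genes). In the small subunit the medians were 12.9 (15 genes) and 10.9 (10 genes). Proteins of a subunit are present in single copies, apart from the stalk protein of Mrpl12, but their RNA levels per kb spanned a wide range.

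**Figure D1:**
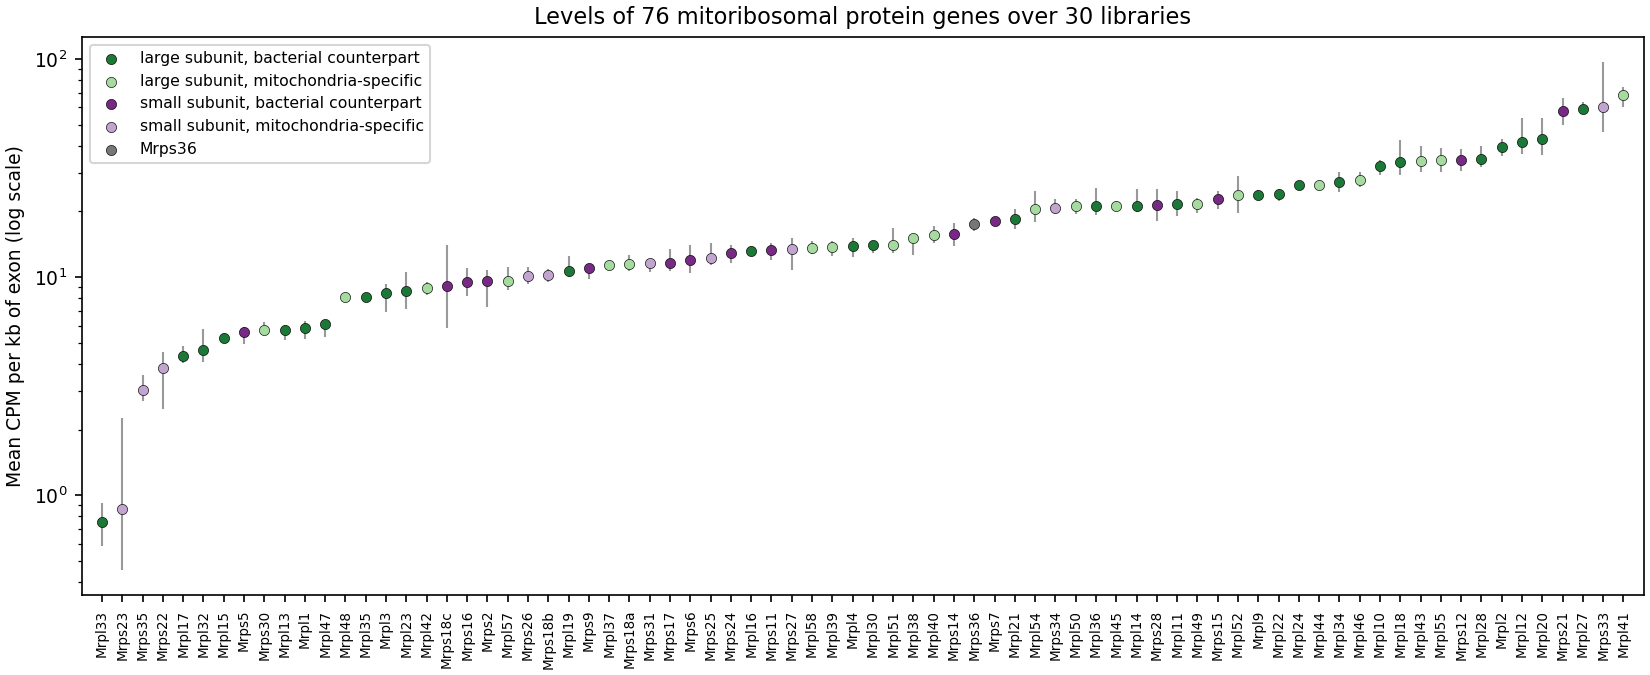
Mean level of each of the 76 tested genes over 30 libraries, in CPM per kb of exon on a log axis, ordered by level and coloured by subunit class. Grey lines run from the lowest to the highest of the 6 group means, and the order runs from Mrpl33 at 0.752 to Mrpl41 at 68.2.

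Most members varied little between pools. The median coefficient of variation (CV) within the Control libraries of a class was 9.0% for members, 18.4% for all genes tested and 12.3% for the 11744 genes within the members' range of levels. Those 11744 genes had a median of 5.61 CPM per kb, against 13.9 for members, so they were not matched for level. The part of level in these CVs was not tested. Mrpl16, a large subunit protein with a bacterial counterpart, was steadiest with a CV of 4.01%. Its level was 40.8, 43.6, 42.6, 41.9 and 43.2 CPM in D1 Control, against 41.6, 39.0, 42.3, 40.2 and 44.9 CPM in D2 Control, so the classes overlapped. Mrps18b followed with a CV of 4.65%. Mrps18c, at 22.5%, and Mrpl33, at 19.4%, had the largest CVs.

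The S18 family shows this spread within a single ancestry. Bacteria have 1 S18 protein, and mammals have 3 nuclear genes for it, of which Mrps18a serves the large subunit and Mrps18b and Mrps18c the small. Mean levels were 11.4 CPM per kb for Mrps18a, 10.2 for Mrps18b and 9.10 for Mrps18c. Mrps18b stayed between 16.7 and 25.2 CPM in all 30 libraries, while Mrps18c ran from 5.12 to 30.8 CPM.

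The summed level of the 78 genes in D1 libraries was 2925 ± 67.3 CPM (SD, n = 5) in Control, 3046 ± 182 in Resilient and 2875 ± 96.2 in Susceptible. In D2 libraries it was 3168 ± 172 CPM in Control, 3020 ± 57.4 in Resilient and 3263 ± 367 in Susceptible. In D2 Susceptible the 5 libraries read 3574, 3681, 2852, 3260 and 2947 CPM, and replicates 1, 2 and 4 were above the other 2. D2 Control replicate 4, at 3453 CPM, and D1 Resilient replicate 5, at 3367 CPM, were also above the rest of their groups. Summed large to small subunit levels stood at a ratio of 2.14 to 2.36 in 28 libraries, and at 2.06 and 1.91 in D2 Susceptible replicates 1 and 2. Oligodendrocyte markers were also highest in D2 Susceptible replicates 1 and 2, at 1894 and 1454 CPM, and in D2 Control replicate 4, at 1363 CPM. In D1 Resilient replicate 5 they were at 500 CPM, within the 383 to 536 CPM of its group. D2 Resilient replicate 1 had 1108 CPM of these markers and a summed level of the 78 genes of 3021 CPM. The part of oligodendrocyte markers in the summed levels was not tested.

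**Figure D2:**
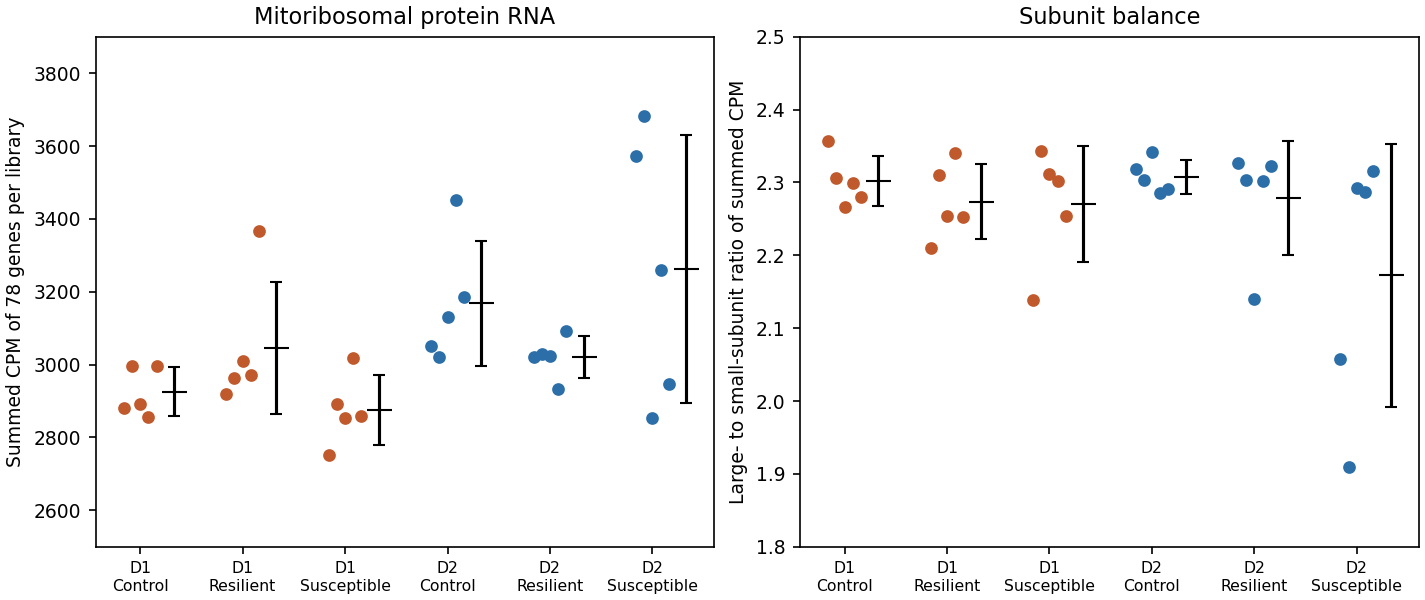
Left, summed CPM of the 78 genes in each library, and right, the ratio of large to small subunit sums. Points are libraries, 5 per group, and bars give the mean and SD. D2 Susceptible replicates 1 and 2 have high sums (3574 and 3681 CPM) and the lowest ratios (2.06 and 1.91). The axes do not start at 0.

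Stress comparisons within D1 neurons called none of the 76 genes, and none of all genes tested. Calls rest on edgeR's quasi-likelihood test with Benjamini-Hochberg adjustment over 19368 genes and an adjusted p under 0.05. In D1 Susceptible against Control 0 members were called (0% of all genes), and 1, Mrps23, had an unadjusted p under 0.05 (2.40% of all genes did). In D1 Resilient against Control 0 were called (0% of all genes) and 0 had an unadjusted p under 0.05 (2.60% of all genes). In D1 Susceptible against Resilient 0 were called (0% of all genes) and 7 had an unadjusted p under 0.05, 1 higher and 6 lower in Susceptible (3.49% of all genes in either direction). DESeq2 also called 0 members in all 3.

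The median log2 difference of the members was -0.03 in D1 Susceptible against Control, 0.07 in D1 Resilient against Control and -0.08 in D1 Susceptible against Resilient. Over all genes these medians were -0.01 each. The last comparison had 10 of 76 members above 0. Both Resilient comparisons share D1 Resilient replicate 5, the library with the high sum. Mrpl41 (chr2:24974117-24975098, minus strand), with the smallest p in D1 Resilient against Control, was at 58.0, 63.7, 64.0, 61.2 and 72.2 CPM in Resilient and 62.5, 59.4, 53.7, 52.3 and 56.2 CPM in Control. These groups overlapped, and differed by 0.17 in log2 (SE 0.09, edgeR adjusted p = 1).

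Mrps23 (chr11:88204388-88211507, plus strand), a small subunit protein specific to mitochondria, had its D1 Susceptible mean set by 1 pool. D1 Susceptible libraries read 14.1, 0.988, 0.948, 0.866 and 0.642 CPM, and D1 Control libraries 0.724, 0.937, 0.735, 0.887 and 0.922 CPM. Only replicate 1 stood apart, on 139 counts, and the other 4 lay across the Control range. The fitted log2 difference was 2.00 (SE 0.67, edgeR adjusted p = 1), and it was 0.04 without that library. Against D1 Resilient the log2 difference was 2.25 (SE 0.67, edgeR adjusted p = 0.784), and 0.28 without that library.

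In D2 neurons 0 members were called in Susceptible against Control, where 0.00516% of all genes were (1 gene). At an unadjusted p under 0.05, 5 members were higher and 8 lower in Susceptible, against 8.68% of all genes higher and 7.0% lower. D2 Resilient against Control called 0 members (0% of all genes), and 9 had an unadjusted p under 0.05, 1 higher and 8 lower in Resilient (4.20% of all genes in either direction). DESeq2 called 1 member, Mrps33, in Susceptible against Control, where it called 1.32% of all genes, and 0 in Resilient against Control.

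Mrps33 (chr6:39801804-39810988, minus strand), a short small subunit protein specific to mitochondria, was at 231, 296, 85.7, 108 and 86.3 CPM in D2 Susceptible. D2 Control libraries read 78.5, 92.5, 86.8, 96.7 and 93.3 CPM, and D2 Resilient libraries 98.5, 94.4, 119, 75.7 and 83.6 CPM. Replicates 1 and 2 were above all other libraries of the study, and the other 3 overlapped Control and Resilient. The log2 difference from Control was 0.85 (SE 0.24, edgeR adjusted p = 0.158), and 0.05 (SE 0.14) without replicates 1 and 2.

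Mrpl23 (chr7:142532686-142540747, plus strand), whose protein sits at the exit of the peptide tunnel, had the smallest p in D2 Resilient against Control. Its levels were 35.2, 38.4, 38.9, 40.1 and 36.3 CPM in Resilient and 41.3, 46.3, 48.7, 58.6 and 48.4 CPM in Control. The groups did not overlap, and the log2 difference was -0.36 (SE 0.12), with an edgeR adjusted p of 1.

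D2 Susceptible against Resilient held the most members with a small p among the 6 stress comparisons, although 0 were called, where 0.0516% of all genes were. At an unadjusted p under 0.05, 21 of the 76 were higher in Susceptible and 6 lower, while 10.8% of all genes were higher and 8.26% lower. DESeq2 called 8, of which 5 were higher and 3 lower, and 5.04% of all genes. Leaving out D2 Susceptible replicates 1 and 2 left 0 called, with 1 higher in Susceptible and 4 lower at that p. The median log2 difference of the members moved from 0.06 to -0.02. Leaving out only replicate 3, 4 or 5 of D2 Susceptible raised the count of calls. It was 19 without replicate 3 (9.93% of all genes were called), 14 without replicate 5 (8.11%) and 2 without replicate 4 (2.08%). Over the 10 fits that left out 1 library of either group, the count ran from 0 to 19.

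Mrpl18 (chr17:12911349-12916345, minus strand), a large subunit protein of the central protuberance, was at 70.3, 76.3, 42.8, 61.3 and 47.2 CPM in D2 Susceptible and 42.4, 43.8, 47.6, 42.7 and 42.2 CPM in D2 Resilient. Susceptible replicates 1, 2 and 4 were above every Resilient library, and the other 2 overlapped them. On the log2 scale the difference was 0.45 (SE 0.11, edgeR adjusted p = 0.0653), and 0.20 (SE 0.10) without replicates 1 and 2. Mrpl18 overlaps antisense Tcp1 by 141 bp of exon, 10.1% of its own.

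Mrpl43 (chr19:45004829-45006442, minus strand), a large subunit protein specific to mitochondria, read 76, 71.8, 51.4, 54.6 and 48.9 CPM in D2 Susceptible and 46.0, 46.7, 45.0, 46.9 and 46.8 CPM in D2 Resilient. All 5 Susceptible libraries were above all 5 Resilient ones. The difference in log2 was 0.39 (SE 0.10, edgeR adjusted p = 0.0659), and 0.15 (SE 0.09) without replicates 1 and 2. Mrpl43 and Mrpl3 are given for this comparison after their values were seen. Mrpl3 (chr9:105053239-105079888, plus strand), a protein near the peptidyl transferase centre, had the opposite sign. It read 35.5, 40.2, 53.7, 49.1 and 52.3 CPM in D2 Susceptible and 64.8, 61.8, 57.0, 55.2 and 65.1 CPM in D2 Resilient. The groups did not overlap, and differed by -0.40 in log2 (SE 0.11, edgeR adjusted p = 0.0789) and by -0.24 (SE 0.11) without those libraries.

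**Figure D3:**
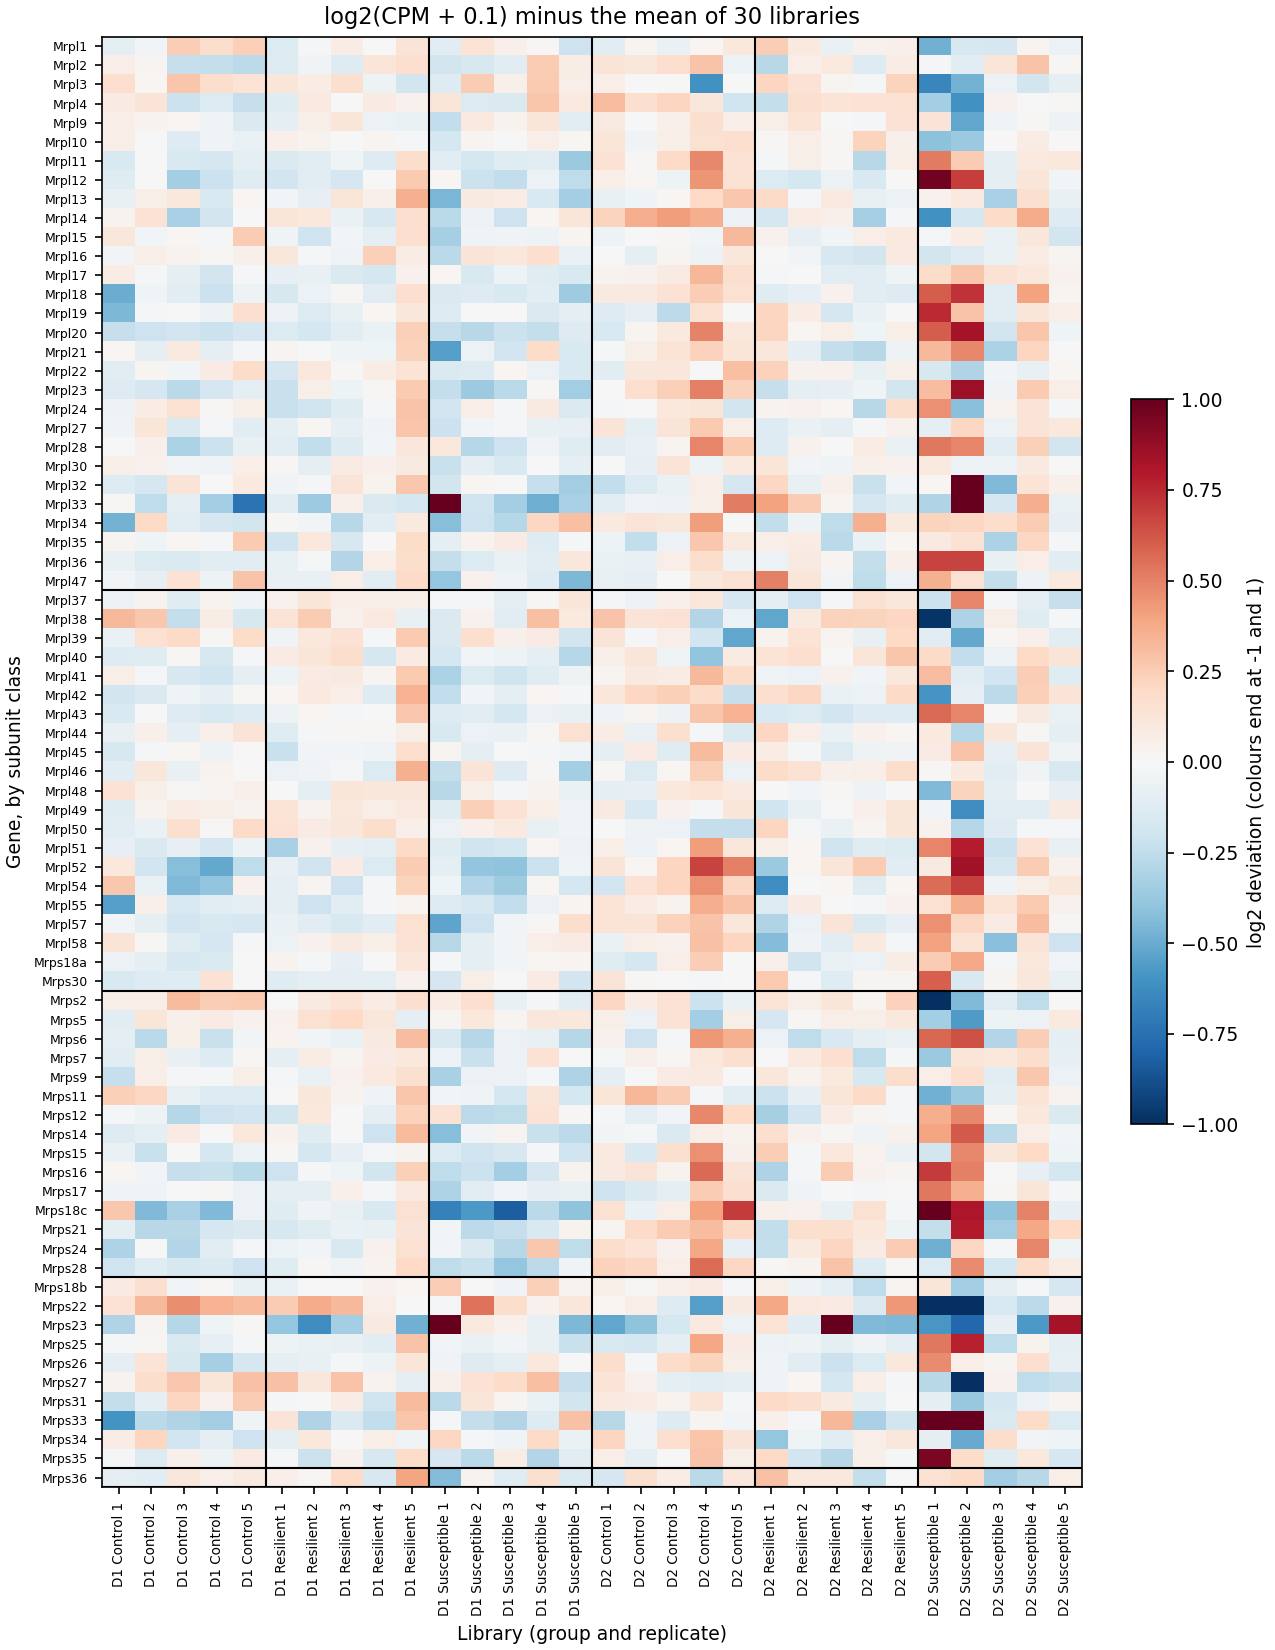
Deviation of each tested gene in each library from its mean over 30 libraries, in log2(CPM + 0.1), with genes by subunit class and libraries by group. Red is higher and blue lower, and D2 Susceptible replicates 1 and 2 differ from the other libraries in both directions, with Mrps33 at 231 and 296 CPM and Mrps22 at 7.02 and 2.68 CPM.

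The classes were then compared within each stress group. In Control libraries 5 members were called, all lower in D1 than in D2. This is 6.58% of the 76, against 8.30% of all genes tested, and by direction 4.80% of all genes were lower and 3.51% higher in D1. The 5 were Mrps28, Mrpl55, Mrpl52, Mrpl23 and Mrpl11. Across the 76 genes 21 were above 0, and the median log2 difference was -0.10, against -0.0028 over all genes.

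Mrps28 (chr3:8802146-8923918, minus strand), a small subunit protein, was at 14.4, 15.3, 14.8, 15 and 14.4 CPM in D1 Control, against 19.5, 19.2, 17.4, 24.5 and 19.2 CPM in D2 Control. The classes did not overlap, and the log2 difference was -0.43 (SE 0.12, edgeR adjusted p = 0.0154). Mrpl52 (chr14:54426909-54429756, plus strand), with the GABP match at its start, was at 27.6, 22.5, 19.0, 18 and 21.5 CPM in D1 and 28.1, 26.0, 29.8, 41.0 and 36.4 CPM in D2. D1 replicate 1 was above the lowest D2 library, and the log2 difference was -0.57 (SE 0.16, edgeR adjusted p = 0.0200).

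Mrpl55 (chr11:59202486-59206134, plus strand), specific to mitochondria, was at 23.8, 36.1, 31.4, 32.3 and 32.8 CPM in D1 and 38.5, 36.7, 35.7, 45.1 and 42.7 CPM in D2. It overlapped in 1 library of each class, and differed by -0.34 in log2 (SE 0.09, edgeR adjusted p = 0.0176). For Mrpl23, D1 Control libraries read 37.8, 36.7, 34.1, 36.7 and 38.8 CPM, all below the D2 Control values given above, and the log2 difference was -0.40 (SE 0.12, edgeR adjusted p = 0.0326). Mrpl11 (chr19:4962147-4966999, plus strand), a protein of the stalk base, was at 62.6, 69.2, 62.6, 61.9 and 65.0 CPM in D1 and 76.6, 70.2, 79.4, 97.0 and 76.8 CPM in D2. It did not overlap, and differed by -0.32 in log2 (SE 0.10, edgeR adjusted p = 0.0377). Mrpl11 is named because it completes the 5, after its values were seen. D2 Control replicate 4 was the highest D2 Control library for all 5 genes, and without it 0 members were called (5.34% of all genes). Without D1 Control replicate 3 or 5, or D2 Control replicate 5, 1 was called, and without D1 Control replicate 1 or 4, 2 were. Shares of all genes are not given here for these fits, so a fall particular to the members is not read from them.

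Taking D2 Susceptible replicates 1 and 2 out of the fit gave 13 calls in Control, 12 lower and 1 higher in D1, while 15.3% of all genes were called in that fit. The higher gene was Mrps22 (chr9:98588730-98601660, minus strand), a small subunit protein specific to mitochondria. It read 16, 18.1, 20, 18.5 and 18 CPM in D1 Control, against 14.6, 15.1, 13.2, 9.81 and 15.4 CPM in D2 Control. In that fit the log2 difference was 0.42 (SE 0.13, edgeR adjusted p = 0.0188), and all 5 genes called with all libraries were called again.

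In Resilient libraries 0 members were called between D1 and D2 (6.65% of all genes were), and 0 had an unadjusted p under 0.05 (15.2% of all genes did). The median log2 difference was 0.01, with 40 of 76 members above 0. DESeq2 also called 0 members (8.23% of all genes), as did each of the other fits tried. Among those, limma voom called 17.6% of all genes and the fit with no filter on low counts 3.63%. Mrps28 was at 15.3, 16.7, 16.2, 17.0 and 19.0 CPM in D1 Resilient and 16.8, 17.0, 20.3, 15.2 and 16.7 CPM in D2 Resilient. Mrpl23 was at 35.3, 42.9, 39.9, 41.5 and 49.4 CPM in D1 Resilient, against the 35.2 to 40.1 CPM of D2 Resilient given above. Both genes overlapped between the classes. Mrpl43 had the smallest p and differed by 0.20 in log2 (SE 0.10, edgeR adjusted p = 0.373). All 5 of its D1 Resilient libraries, at 49.6, 51.9, 50.6, 51.2 and 61.7 CPM, were above all 5 of D2 Resilient. Vascular markers differed between the classes here as in the other groups, with endothelial sums of 13.5 to 17.6 CPM in D1 Resilient and 56.6 to 200 CPM in D2 Resilient. Their part in the class comparisons was not tested.

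In Susceptible libraries 26 of 76 members (34.2%) were called between D1 and D2, against 23.9% of all genes. Lower in D1 were 22 members, against 13.4% of all genes, and higher were 4, against 10.5% of all genes. The 26 include all 5 genes called in Control, which are 19.2% of the 26. By subunit, 14 of 50 large subunit genes were called lower and 1 higher, and 8 of 25 small subunit genes lower and 3 higher. Of the 4 higher in D1, Mrps22, Mrps23 and Mrps27 are small subunit genes specific to mitochondria, and Mrpl3 belongs to the large subunit.

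These counts rest on D2 Susceptible replicates 1 and 2. Without both, 2 members were called, Mrps18c and Mrpl23, both lower in D1, while 10.4% of all genes were called. The median log2 difference of the members was -0.15 with and -0.05 without them. With 4 libraries out, those 2 with replicate 1 of D1 Susceptible and replicate 5 of D2 Resilient, 0 were called (10.6% of all genes). With the spread estimated from the 2 Susceptible groups alone, 0 were called (5.48% of all genes).

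**Figure D4:**
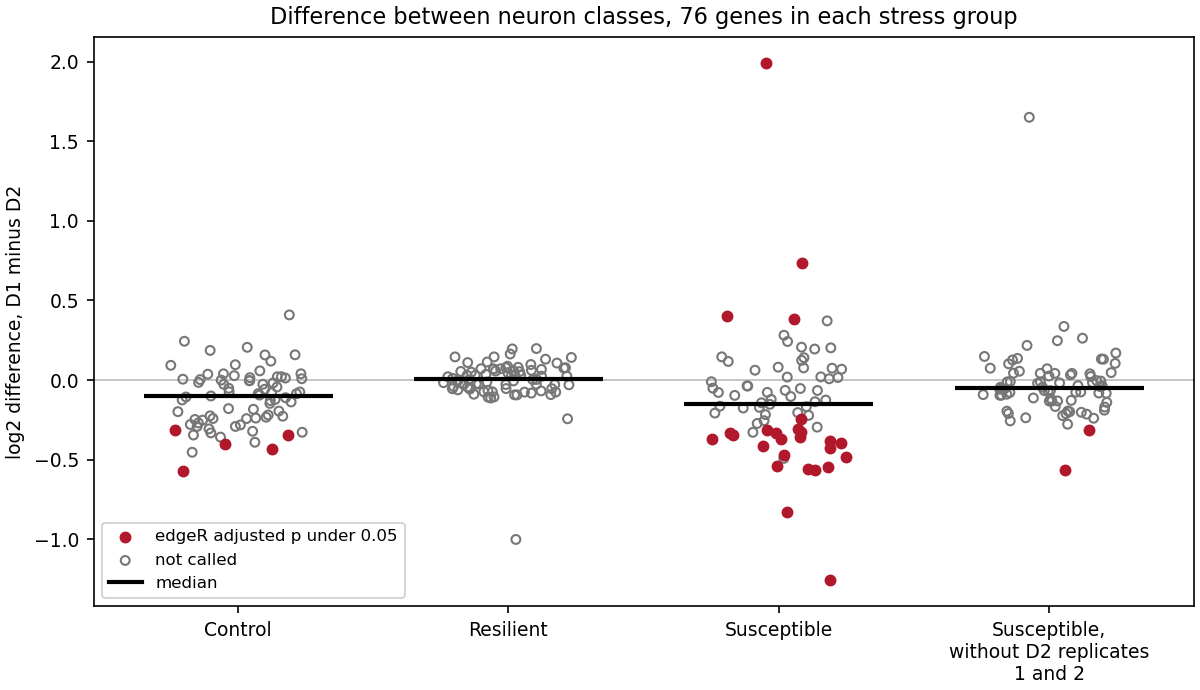
Log2 difference, D1 minus D2, of the 76 tested genes in Control, Resilient and Susceptible, and in Susceptible without D2 replicates 1 and 2. Filled points passed an edgeR adjusted p under 0.05 (5, 0, 26 and 2 genes), and black lines are medians (-0.10, 0.01, -0.15 and -0.05).

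Mrps18c (chr5:100798627-100804471, plus strand) had the smallest p. Its D1 Susceptible libraries read 5.68, 6.10, 5.12, 7.57 and 6.90 CPM, and D2 Susceptible libraries 30.8, 16.1, 6.89, 12.9 and 8.63 CPM. D2 replicate 3 lay among the D1 values and replicate 1 far above them. The log2 difference was -1.26 (SE 0.25, edgeR adjusted p = 0.000632) with all libraries and -0.57 (SE 0.19, edgeR adjusted p = 0.0454) without D2 replicates 1 and 2. Of its exon bases, 23.2% are shared with Gm43511 on the same strand.

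For Mrpl23, D1 Susceptible libraries read 35, 32.0, 34.2, 41.7 and 32.3 CPM, and D2 Susceptible libraries 51.1, 74.6, 40.3, 49.5 and 43.3 CPM. Only D1 replicate 4 and D2 replicate 3 overlapped. On the log2 scale the difference was -0.56 (SE 0.12, edgeR adjusted p = 0.00136), and -0.32 (SE 0.10, edgeR adjusted p = 0.0466) without D2 replicates 1 and 2. The processed pseudogene Mrpl23-ps1 drew 4716 counts over all libraries, so reads of Mrpl23 may be split.

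Mrpl18 was at 41.9, 42.2, 41.5, 42.9 and 36.1 CPM in D1 Susceptible, against the 42.8 to 76.3 CPM of D2 Susceptible given above, where only D2 replicate 3 overlapped. The difference in log2 was -0.54 (SE 0.11, edgeR adjusted p = 0.00113), and -0.28 (SE 0.10, edgeR adjusted p = 0.0755) without D2 replicates 1 and 2.

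Mrpl12 (chr11:120484613-120489065, plus strand), the stalk protein that recruits translation factors, carries the NRF1 match printed above. It was at 63.5, 54.2, 52.9, 60.1 and 52.7 CPM in D1 Susceptible and 122, 102, 58.8, 68.5 and 61.6 CPM in D2 Susceptible, where replicates 3 and 5 overlapped D1. The log2 difference was -0.55 (SE 0.14, edgeR adjusted p = 0.00623), and -0.13 (SE 0.10) without D2 replicates 1 and 2, where it was not called. Mrps33 went from -0.83 (SE 0.24, edgeR adjusted p = 0.0134) to -0.02 (SE 0.14) in the same fits.

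Among the genes higher in D1, Mrps22 read 14.3, 21.1, 16.3, 14.9 and 15.7 CPM in D1 Susceptible and 7.02, 2.68, 13.0, 12 and 14.9 CPM in D2 Susceptible. D2 replicates 1 and 2 were lowest, and replicate 5 overlapped D1. On the log2 scale the difference was 0.73 (SE 0.24, edgeR adjusted p = 0.0279), and 0.34 (SE 0.15, edgeR adjusted p = 0.149) without D2 replicates 1 and 2. Mrps27 (chr13:99344786-99415562, plus strand), with GABP and YY1 matches, is a pentatricopeptide repeat protein of the small subunit. It read 28.9, 30.8, 31.6, 34.3 and 23.7 CPM in D1 and 23.0, 13.9, 28.8, 23.4 and 23.8 CPM in D2, and differed by 0.40 in log2 (SE 0.13, edgeR adjusted p = 0.0193) and by 0.26 (SE 0.11, edgeR adjusted p = 0.125) without those libraries. Mrpl3 went from 0.39 (SE 0.11, edgeR adjusted p = 0.0147) to 0.25 (SE 0.11, edgeR adjusted p = 0.175). The call of Mrps23, at 1.99 (SE 0.66, edgeR adjusted p = 0.0282), rests on D1 Susceptible replicate 1, whose values are given above.

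The other 17 called members were all lower in D1 Susceptible than in D2 Susceptible, with log2 differences of -0.57 to -0.25. They are Mrpl11, Mrpl17, Mrpl19, Mrpl20, Mrpl36, Mrpl43, Mrpl51, Mrpl52, Mrpl54, Mrpl55 and Mrpl57 of the large subunit, and Mrps6, Mrps14, Mrps16, Mrps17, Mrps28 and Mrps35 of the small subunit. Without D2 Susceptible replicates 1 and 2 these 17 lay between -0.26 and -0.02, and none was called. All 26 called members kept their sign in that fit, and all 26 were closer to 0. Mrpl52, Mrps28 and Mrpl55, called in Control too, stayed farthest from 0 among the 17, at -0.26, -0.24 and -0.24. Mrpl11, also called in Control, was at -0.196. Mrpl20 at -0.224 and Mrpl57 at -0.203, which were not called in Control, were farther from 0 than Mrpl11.

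**Figure D5:**
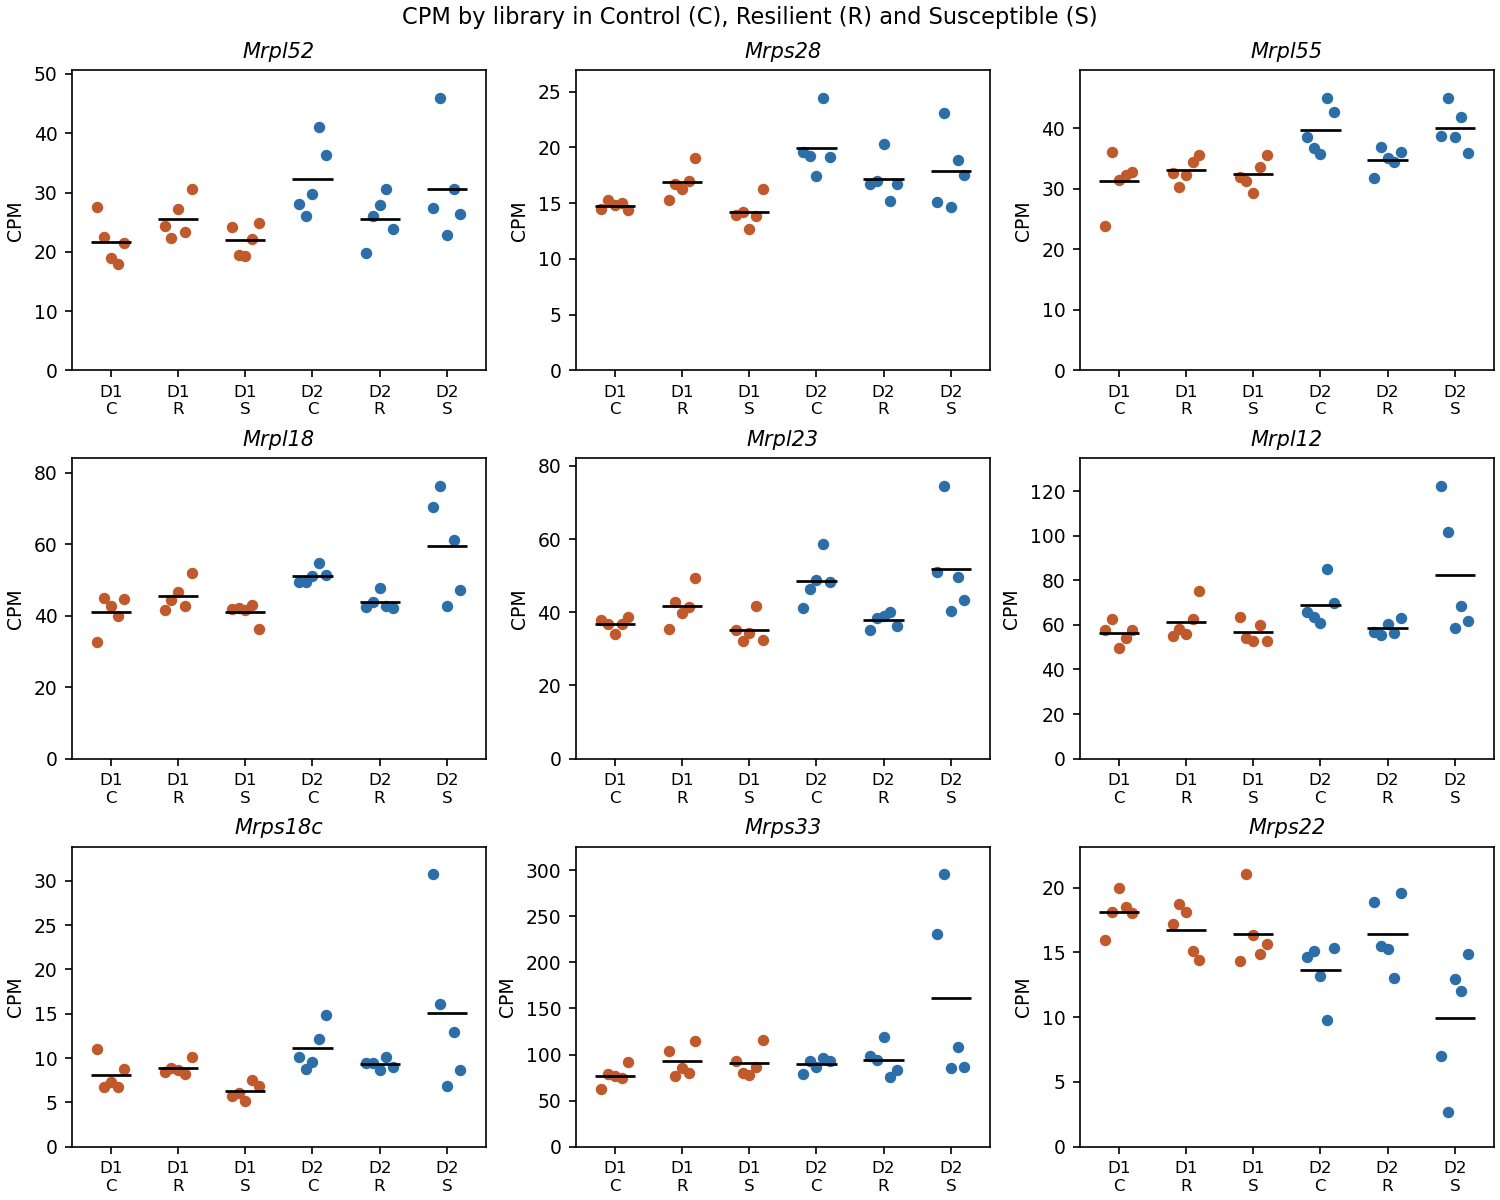
CPM of 9 genes in each library by class (D1 orange, D2 blue) and stress group, with group means as lines. Mrps28 separates in Control (14.4 to 15.3 CPM in D1 and 17.4 to 24.5 in D2) and overlaps in Resilient. The high D2 Susceptible mean of Mrps33 rests on replicates 1 and 2. Mrps18c is also highest in those replicates, and its D1 minus D2 log2 difference in Susceptible was -1.26 with and -0.57 without them.

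The difference between the classes was tested for a change with stress as the D1 change minus the D2 change. For Susceptible against Control 0 members were called (0% of all genes), and 8 had an unadjusted p under 0.05, 4 in each direction (7.79% of all genes in either direction). For Resilient against Control 0 were called (0% of all genes), and 13 had an unadjusted p under 0.05 (4.99% of all genes), 12 of them above 0. For Susceptible against Resilient 0 were called (0% of all genes), and 3 were above and 20 below 0 at an unadjusted p under 0.05, against 4.35% and 8.06% of all genes. DESeq2 called 0 members in all 3. The calls in Control and Susceptible and their lack in Resilient are therefore not shown to differ between stress groups.

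The median member had a D1 minus D2 change of 0.13 on the log2 scale for Resilient against Control, with 56 of 76 above 0, while the median over all genes was -0.01. Mrpl23 had the smallest p, at 0.55 (SE 0.17, edgeR adjusted p = 0.648). That median was 0.14 without D2 Susceptible replicates 1 and 2, which this contrast does not use. For Susceptible against Resilient the median was -0.15, and -0.08 without D2 Susceptible replicates 1 and 2. Mrpl23 again had the smallest p, at -0.71 (SE 0.17, edgeR adjusted p = 0.21). For Susceptible against Control the median was -0.01, with 36 of 76 above 0, and it turned to 0.07, with 56 above 0, without D2 Susceptible replicates 1 and 2. Mrpl4, a protein that lines the exit tunnel, had the smallest p, at 0.40 (SE 0.17, edgeR adjusted p = 0.637). These 3 contrasts share libraries pairwise.

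Among members of known role that were not called anywhere, Mrps12 was at 35.1, 34.2, 29, 30.6 and 31.0 CPM in D1 Control, against 34.9, 33.2, 34.6, 49.5 and 40.6 CPM in D2 Control. The classes overlapped. Mrpl58, which releases peptides from stalled mitoribosomes, ran from 33.3 to 59.4 CPM over all libraries and overlapped between classes in every stress group.

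Member length was set beside these differences. With the members split at the median exon length of 2394 bp, the 38 shorter ones had a median D1 minus D2 difference in Control of -0.22 and the 38 longer ones -0.04. All tested genes moved the same way, with -0.12 below that length and 0.03 above it. In Resilient the medians were 0.02 for shorter and 0.01 for longer members. The part of length in the Control difference was not tested.

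The cytosolic ribosomal protein genes, whose products translate these same mRNAs, gave 32 of 82 called lower and 0 higher in D1 Control against D2 Control. Over all genes 4.80% were lower and 3.51% higher there. In Resilient 0 of 82 were called (6.65% of all genes were). In Susceptible, with D2 replicates 1 and 2 included, 58 were lower and 0 higher in D1, against 13.4% and 10.5% of all genes. The Susceptible count was not repeated without those replicates. Their summed level was 9783 ± 429.9 CPM (SD, n = 5) in D1 Control, against 11886 ± 1076 CPM in D2 Control. D2 Control replicate 4 was the highest of its group at 13662 CPM, and the others were at 10727 to 11719 CPM. The Control count of cytosolic genes was not repeated without that library. These counts stand beside those of the mitoribosomal genes and share their libraries.

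Other parts of the mitochondrial translation system were read from lists of 5 mitoribosomal proteins under other names, 15 translation factors, 23 tested assembly and rRNA modification factors, 20 tRNA synthetases, 7 genes of mitochondrial DNA transcription and replication, and 8 regulators. None of these genes was called in a stress comparison or in a D1 minus D2 change. In Control, Mars2, the mitochondrial methionyl-tRNA synthetase, was higher in D1, with 16.7, 18.1, 22.5, 19.5 and 18.5 CPM against 15.4, 15.4, 13.6, 11.6 and 12.6 CPM in D2. Its log2 difference was 0.48 (SE 0.11, edgeR adjusted p = 0.0068), and the classes did not overlap. Polg, the polymerase that copies mitochondrial DNA, was lower in D1, at -0.26 (SE 0.07, edgeR adjusted p = 0.023). So was Twnk, its helicase, at -0.33 (SE 0.10, edgeR adjusted p = 0.040), which overlaps 507 bp of Mrpl43 exon on the opposite strand. In Resilient only Polg was called, where 6.65% of all genes were.

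In Susceptible the lists held 18 calls with all libraries, 10 higher and 8 lower in D1. Over all genes 23.9% were called there, 10.5% higher and 13.4% lower in D1. Translation factors counted 3 higher and 2 lower, tRNA synthetases 5 higher, transcription and replication genes 2 lower, mitoribosomal proteins under other names 2 lower, assembly factors 1 higher, and regulators 1 higher and 2 lower. Without D2 Susceptible replicates 1 and 2, 3 of the genes on these lists were called (10.4% of all genes were), all higher in D1. These were Mars2, at 0.50 (SE 0.12, edgeR adjusted p = 0.0043), the recycling factor Mrrf, at 0.46 (SE 0.12, edgeR adjusted p = 0.0084), and the leucyl-tRNA synthetase Lars2. Mrrf read 17.1, 16.5, 15.1, 15.2 and 14.0 CPM in D1 Susceptible and 4.38, 10.2, 11.5, 11.5 and 11.5 CPM in D2 Susceptible, with no overlap. Lars2 was at 181829 CPM in D1 Susceptible replicate 1, the library dominated by Gm42418, and at 408 to 3569 CPM in the other 4, so no difference between classes is read from it.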

How the data were processed

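RNA bound to tagged polyribosomes was sequenced from 30 libraries, 6 groups of 5, each a pool of 4 mice. The values are raw counts per gene that the authors deposited as a table and as per-library files, which were identical for all 30 libraries. HISAT2, HTSeq and the builds GRCm38 and mm10 are named, without versions, in the submitters' processing notes. No source used here gives the annotation release or the strand setting of the counting. Symbols, biotypes, exon lengths and coordinates were taken from GENCODE M21, and 55154 of 55335 gene identifiers had a symbol. Promoter sequences are from RefSeq on GRCm38.p6. Lines of the count files that name no gene, 10.1% to 53.3% of a library's counts, were left out of library sizes and tests.

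Counts were fitted with edgeR 4.0.16 (R 4.3.3) in 1 quasi-likelihood model of the 6 groups with robust dispersion. TMM scaling and a filter of 10 counts per gene (filterByExpr, total of 15) left 19368 genes. P-values were Benjamini-Hochberg adjusted over these genes in each of 12 comparisons, and genes under 0.05 were called. SE is the log2 difference divided by the square root of F. The script was tested on simulated counts. Alternatives were DESeq2 1.42.0 (its test, and its size factors in edgeR), limma 3.58.1 with voom and quality weights, no filter, the replicate number as a block, only the groups compared, and libraries left out. DESeq2 adjusted p-values that were not given stayed so. Pandas 2.3.3, numpy 2.4.6 and matplotlib 3.10.9 (Python 3.11.15) were used for tables and figures.

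The members, gene lists and comparisons were chosen with earlier results of these data known. Genes are named by rule, in each comparison up to 3 per direction with the smallest adjusted p under 0.05, or else the 1 with the smallest p. The 3 highest and 3 lowest per kb, untested members, the 2 largest and 2 smallest CVs, the S18 family, Mrpl12, Mrps12 and Mrpl58 are also named, and up to 3 called genes per related list and comparison. Mrpl11, other members of a short list of calls, and Mrpl43 and Mrpl3 in D2 Susceptible against Resilient were added after their values were seen. One D2 marker, of 6, was not analysed here. Chi-square comparisons of the counts of 60 library pairs within groups gave no sign of a library deposited under more than 1 name, with 12.8 to 2672 per degree of freedom.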

Additional observations from a re-analysis of the deposited data

Results flagged for a closer look

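Of 156 groups of 5 libraries checked, 14 held a library whose gap to its nearest neighbour was over 0.71 of the group's range. Chance alone gives this in about 1 of 20 groups. D1 Resilient replicate 5 had a summed level of the 78 genes of 3367 CPM, above 2919 to 3011 CPM in the other 4. The same library was high for Mrpl43, at 61.7 CPM against 49.6 to 51.9, and for Mrpl27, at 70.2 CPM against 54.6 to 59.0.

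D1 Susceptible replicate 1 was high for Mrps23, at 14.1 CPM against 0.642 to 0.988, and for Mrpl33, at 15.1 CPM against 3.65 to 4.48. Mrps23 was also high in D2 Resilient replicate 3, at 3.98 CPM against 0.643 to 1.02. For Mrpl33, D2 Susceptible replicate 2 was at 13.5 CPM against 4.17 to 6.68, and D2 Control replicate 5 at 7.40 CPM against 4.77 to 5.39. Mrps35 was at 49.9 CPM in D2 Susceptible replicate 1, against 23.0 to 29.5.

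Mrpl18 was low in D1 Susceptible replicate 5, at 36.1 CPM against 41.5 to 42.9, and high in D2 Resilient replicate 3, at 47.6 CPM against 42.2 to 43.8. Mrpl43 was at 51.1 CPM in D1 Control replicate 2, against 46.0 to 47.0. Mrpl3 was low in D2 Control replicate 4, at 36.7 CPM against 55.8 to 58.4, and Mrpl4 in D2 Resilient replicate 1, at 30.5 CPM against 39.5 to 40.1.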

How the results depend on the processing

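No value changed sign while called. Between D1 and D2 in Control, 5 members were called, against 25 with limma voom (28.4% of all genes were called), 2 with no filter on low counts (4.23%), 11 with only the groups compared (15.6%), 13 without D2 Susceptible replicates 1 and 2 (15.3%), and 17 (16.2%) with 4 libraries out, those 2 with replicate 1 of D1 Susceptible and replicate 5 of D2 Resilient. Leaving out 1 library gave 0 to 5, with 0 without D2 Control replicate 4 (5.34% of all genes). It gave 3 without D2 Control replicate 3, a fit whose share of all genes is not given here. In Susceptible, 26 were called, against 8 with limma voom (17.0% of all genes), 15 with no filter (13.2%), 0 with only the groups compared (5.48%), 2 without D2 Susceptible replicates 1 and 2 (10.4%), and 0 with 4 libraries out (10.6%). Leaving out 1 library gave 10 to 35, with 10 without D2 Susceptible replicate 2 (17.9%), 13 without D2 Susceptible replicate 1 (17.7%) or D1 Susceptible replicate 2 (19.5%), 17 without D1 Susceptible replicate 3 (20.1%) and 35 without D2 Susceptible replicate 3 (31.4%). DESeq2 called 1 member in D2 Susceptible against Control (1.32% of all genes) and 8 in D2 Susceptible against Resilient (5.04%), where edgeR called 0. Leaving out 1 library gave 0 to 2 and 0 to 19, with 9.93% of all genes called in the fit that gave 19. In the D1 change minus D2 change, limma voom called 1 for Resilient against Control, Mrpl23 (0.873% of all genes were called). For Susceptible against Resilient, leaving out 1 library gave 0 to 4. Shares of all genes are not given here for the fits behind 0 to 2 and 0 to 4. Neither range is read as a result about the members. The cause of these moves was not tested. Every other count kept within 1.5 times of its main value, and 216 of 246 alternative counts did not move beyond that.

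With the replicate number as a block, 4 members were called in Control (7.73% of all genes) and 21 in Susceptible (21.5%). In the other comparisons 0 members were called, also between D1 and D2 in Resilient, where 6.35% of all genes were. The replicate numbers did not pair the libraries. Deviations of 75 same-numbered pairs had a mean correlation of -0.0040 and a highest one of 0.0779, and 2 of 30 libraries correlated best with their own number. Libraries with few counts on the members, 27112 in D1 Susceptible replicate 1, limit what can be seen for genes at the level of Mrps23.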

Other observations

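Among genes that act with the mitoribosome, a few separated the classes in Control only once D2 Susceptible replicates 1 and 2 were left out of the fit. Ptcd3, a mitoribosomal protein under another name, was higher in D1, by 0.40 in log2 (SE 0.09, edgeR adjusted p = 0.0011). Aurkaip1 and Gadd45gip1, also mitoribosomal proteins, were lower, at -0.30 (SE 0.09, edgeR adjusted p = 0.018) and -0.26 (SE 0.09, edgeR adjusted p = 0.038). Mitoribosomal proteins under other names thus held calls in both directions in that fit, where 15.3% of all genes were called. With all libraries none of the 5 was called in Control (8.30% of all genes were).

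The regulator Ppargc1b, a coactivator of nuclear genes for mitochondrial proteins, was at 57.2, 69.3, 13.4, 23.4 and 15.8 CPM in D2 Susceptible. Replicates 1 and 2 stood above the other 3, as they did for Mrps33. Its D1 minus D2 log2 difference in Susceptible was -1.33 (SE 0.35, edgeR adjusted p = 0.0080), and it was not called without those libraries.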
